A study of Mus musculus with 6 samples.

Results

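In the pooled lists of 6 tumours, 739 of 15234 transcribed loci (4.85%) carried no Ensembl gene identifier in any row, and the other 14495 carried one. The rule for members used that missing identifier alone and no measured value, but it was set with earlier results of these data known. The tumours were xenografts of A375, an established human melanoma line described as wild type in the labels, grown under the skin of BALB/c nude mice. Treatment was ZLD1039 at 100 mg/kg, given daily by oral gavage, and the controls received vehicle; all samples date from day 27. The labels put 5 mice in each group, and 3 tumours of each were sequenced. ZLD1039 inhibits EZH2. Nude mice lack a thymus and with it most T cells, but keep other host cells. The age of the mice is not given in the sources used here.

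Locus identifiers of this kind are numbered by an assembler that joins aligned reads into transcripts, and an Ensembl identifier is attached where a transcript matches a known gene. What remains without one usually includes long noncoding RNAs, transcripts of pseudogenes and repeats, RNAs that start in the opposite direction from an active promoter, and pieces of longer genes whose joining reads were not seen. EZH2 is the catalytic subunit of Polycomb repressive complex 2, which methylates histone H3 at lysine 27 and keeps developmental genes silent, noncoding loci among them. No human annotation or genome was used here, so a locus without an identifier is not thereby absent from the human annotation. No member is given a gene name, and no sequence is shown.

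A listed row is a transcript event, such as a start site, an end site or a skipped exon, with a value in FPKM, an abundance corrected for transcript length and library size. A locus was valued in each tumour at its largest single event, or at the sum of its starts or of its ends where that was larger. An unlisted locus counts as 0, which need not mean that it is silent. The number of sequenced fragments is unknown. The labels name the mouse as organism and mm10 as build, but the positions are human: they include chromosomes 20, 21 and 22, and chromosome 1 reaches 249214145 where the mm10 annotation ends at 195323493. Positions are printed as deposited. Markers of melanoma and host cells were not checked, because no human gene symbols were used. The mean correlation of ZLD1039 tumour 2 with the other tumours over all tested loci was 0.919, below the 0.934 to 0.943 of the rest.

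The loci without an identifier were short, weak and seldom shared between tumours. Of the 739, 449 (60.8%) were listed in 1 tumour, 90 in 2, 49 in 3, 44 in 4, 29 in 5 and 78 (10.6%) in all 6. Loci with an identifier had the opposite profile, with 1530 (10.6%) in 1 tumour and 10673 (73.6%) in all 6. Put the other way, members made up 22.7% of all loci listed in a single tumour and 0.726% of those listed in every tumour. The plot of recurrence shows both distributions beside the level of the members.

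**Figure D1:**
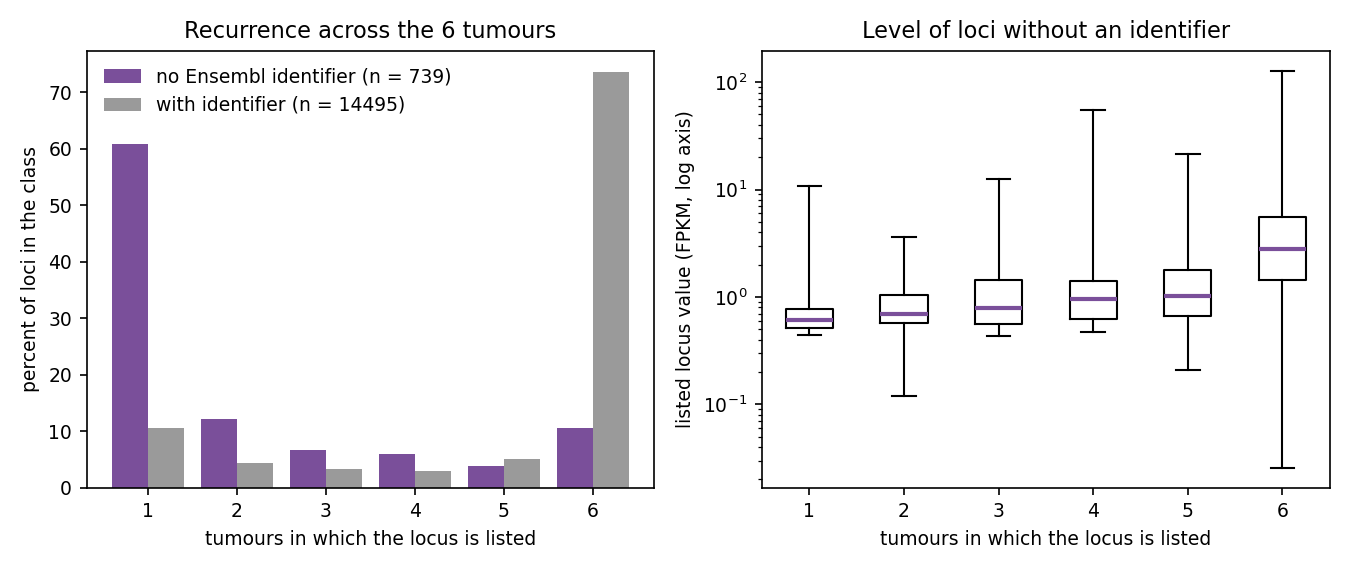
Left, percent of the loci of each class (y axis) by the number of tumours in which they were listed (x axis), for the 739 loci without and the 14495 loci with an Ensembl identifier. Right, every listed value of the loci without an identifier in FPKM on a log axis, by the same number of tumours; the box spans the quartiles, the line is the median and the whiskers reach the lowest and highest value. Loci in 1 tumour have a median of 0.605 FPKM, and those in 6 tumours 2.78 FPKM.

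Members listed in more tumours had higher values. The median listed value was 0.605 FPKM for members in 1 tumour, 0.956 FPKM for members in 4 and 2.78 FPKM for members in 6. For loci with an identifier it was 0.506 FPKM in 1 tumour, 0.542 FPKM in 4 and 8.01 FPKM in 6. Over all members it was 0.921 FPKM, against 6.36 FPKM for all loci with an identifier. Values under 1 FPKM made up 53.4% of the 1565 listed member values and 16.0% of the 73701 others. Split by recurrence, these shares were 86.9% and 86.4% in 1 tumour and 13.0% and 7.09% in 6. Between, members had the lower share, such as 54.0% against 78.4% in 4 tumours. Single-tumour members had a floor: the lowest stood at 0.441 FPKM, while 605 of the 1530 single-tumour loci with an identifier (39.5%) had values below that. Among all listed values, 15 of 1565 in members (0.958%) and 5208 of 73701 in loci with an identifier (7.07%) were below 0.441 FPKM.

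Any 2 tumours shared between 112 and 143 of their members, which was 42.7% to 55.3% of either tumour's list. The lowest pair was vehicle tumour 1 with ZLD1039 tumour 2, at 112, and the highest ZLD1039 tumours 1 and 3, at 143. Vehicle tumours shared 124 to 136 members with each other, ZLD1039 tumours 124 to 143, and tumours of different groups 112 to 142, so these ranges overlapped.

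The number of members listed per tumour did not differ between treatments beyond the spread. The vehicle tumours 1, 2 and 3 listed 262, 247 and 253 members, and the ZLD1039 tumours 272, 255 and 276. The means were 254 ± 7.55 and 268 ± 11.2 (SD, n = 3 each), and an exact two-sided permutation test gave p = 0.2, where 3 tumours against 3 cannot go below 0.1. The ZLD1039 values were mostly higher, but tumour 2 of that group lay inside the vehicle range. In the same tumours the total number of loci listed was 12758, 12508 and 12689 under vehicle and 12608, 12114 and 12589 under ZLD1039.

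As a share of the loci listed, members took 2.05%, 1.97% and 1.99% in the vehicle tumours and 2.16%, 2.11% and 2.19% in the ZLD1039 tumours. Every ZLD1039 tumour was above every vehicle tumour, with means of 2.01% ± 0.0411 and 2.15% (n = 3 each; exact permutation p = 0.1, the smallest possible). Adjusted by Benjamini-Hochberg over the 15 per-tumour quantities computed, that exact p was 0.5. The median value of the listed members moved the other way, at 0.931, 0.963 and 0.952 FPKM under vehicle and 0.859, 0.883 and 0.888 FPKM under ZLD1039, again without overlap (exact permutation p = 0.1, adjusted 0.5). Counting members at 1 FPKM or more, the groups overlapped: 124, 119 and 118 were listed under vehicle and 123, 118 and 128 under ZLD1039.

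Members held a small part of the measured RNA. They took 0.298%, 0.299% and 0.251% of the summed FPKM in the vehicle tumours and 0.267%, 0.294% and 0.306% in the ZLD1039 tumours. The groups overlapped, with a difference of 0.00645 percentage points (exact permutation p = 0.7, n = 3 each). Without the 3 members with the highest means the difference was -0.00705 percentage points, so its direction rests on those loci.

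By group, 228 members (30.9%) were listed in vehicle tumours alone, 267 (36.1%) in ZLD1039 tumours alone and 244 (33.0%) in both. In loci with an identifier the same counts were 1007 (6.95%), 872 (6.02%) and 12616 (87.0%). Members found in at least 2 tumours of a group and none of the other numbered 17 (2.30%) for vehicle and 29 (3.92%) for ZLD1039. Among loci with an identifier these counts were 209 (1.44%) and 140 (0.966%). In 4 members the split was complete: 1 was listed in 3 vehicle tumours and none under ZLD1039, and 3 the reverse. Over all loci, 0.249% were of the first kind, 0.177% of the second and 0.427% of either. No test of these counts was made, since most members rest on 1 tumour.

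The members with a complete split were XLOC_041640, XLOC_084825, XLOC_085426 and XLOC_071826. XLOC_041640 (chromosome 2, 85152708 to 85197916, plus strand) was listed under vehicle at 0.638, 1.38 and 1.80 FPKM but not under ZLD1039. Its last exon ends 300 bp before ENSG00000176407 on the same strand, and that neighbour did not follow it, at 21.1, 20.9 and 9.04 FPKM under vehicle and 19.9, 10.5 and 17.8 FPKM under ZLD1039. For XLOC_041640 limma gave an adjusted p of 0.88.

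XLOC_084825 (chromosome X, 3471258 to 3478202, plus strand) was not listed under vehicle and stood at 6.75, 12.6 and 6.74 FPKM in the ZLD1039 tumours. It was the 1 member called higher by limma (Benjamini-Hochberg adjusted p = 0.036). It held a single start exon of 135 bp and a single end exon of 224 bp, each with the full value of the locus in every tumour. The nearest locus with an identifier, ENSG00000183943, lay 48.5 kb away on the minus strand and overlapped between groups, at 1.29 and 2.49 FPKM and not listed under vehicle and 1.64, 1.28 and 2.94 FPKM under ZLD1039. XLOC_084825 reached the level needed for a test through the ZLD1039 tumours alone. The call was lost with no filter on low values (limma adjusted p = 0.0993) and with summed start events as the locus value (0.0943). It was also lost with a replicate block (limma adjusted p = 0.187) and when any single tumour was left out (0.0728 to 0.277).

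XLOC_085426 (chromosome X, 80065642 to 80068293, plus strand) was not listed under vehicle and had 2.11, 0.570 and 0.606 FPKM under ZLD1039. It starts 460 bp from ENSG00000165288, which runs the other way and had 2.10, 1.68 and 1.73 FPKM under vehicle and 2.09, 2.59 and 1.01 FPKM under ZLD1039. XLOC_071826 (chromosome 7, 5651668 to 5654556, plus strand) had 0.665, 0.511 and 0.542 FPKM under ZLD1039 and was too low to be tested. All of the XLOC_071826 values, and 2 of the 3 of XLOC_085426, were below 1 FPKM, where most single-tumour members lie.

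The members with the highest means included long, much spliced loci. The highest was XLOC_018477 (chromosome 12, 125396150 to 125424476, minus strand), with 49.9, 95.1 and 53.6 FPKM under vehicle and 97.3, 102 and 128 FPKM under ZLD1039. The 3 ZLD1039 values were above the vehicle values, the lowest by little, and the log2 change of 0.76 (SE 0.26) did not pass (limma adjusted p = 0.88). Most of its signal came from a start exon of 762 bp at 125399133 to 125399894, at 49.8, 83.5 and 53.6 FPKM under vehicle and 97.2, 102 and 128 FPKM under ZLD1039. Its far end, 125396150 to 125396445, overlaps ENSG00000150991 (125396194 to 125398262) on the opposite strand. That locus had 69.5, 86.9 and 55.8 FPKM under vehicle and 80.2, 72.6 and 51.1 FPKM under ZLD1039. Whether the libraries kept strand is not given in the sources used here, so reads in the overlap cannot be told apart.

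XLOC_015836 (chromosome 12, 6492245 to 6529298, plus strand) held 42 events, among them start sites whose values differed in opposite directions without passing the test. The locus had 36.1, 36.2 and 33.5 FPKM under vehicle and 20.7, 34.9 and 32.6 FPKM under ZLD1039, and these overlapped. The main start exon, at 6493199 to 6493620, had 31.5, 33.9 and 32.7 FPKM under vehicle and 13.3, 23.7 and 17.6 FPKM under ZLD1039. Every ZLD1039 tumour was below every vehicle tumour there (log2 change -0.85, SE 0.23). Over all loci tested, groups did not overlap in 10.9%, and no such share is given here for events.

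A second start exon of XLOC_015836, of 37 bp at 6494277 to 6494313, had 3.37, 1.79 and 0.206 FPKM under vehicle and 6.66, 6.33 and 13.5 FPKM under ZLD1039, all higher (log2 change 1.93, SE 0.53). Retention of the intron at 6500540 to 6500762 was not listed under vehicle and had 6.44, 2.35 and 1.93 FPKM under ZLD1039. None of these events passed over all events (limma adjusted p = 0.86, 0.86 and 0.69). They are shown out of the 42 events of the locus, so some separation of groups among them carries little weight. XLOC_015836 lies 12.3 kb before ENSG00000139192 on the same strand, which had 1.47 to 3.56 FPKM under vehicle and 2.74 to 3.98 FPKM under ZLD1039.

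XLOC_062389 (chromosome 5, 1801514 to 1830434, plus strand) had 20.8, 37.0 and 24.2 FPKM under vehicle and 21.6, 39.6 and 26.1 FPKM under ZLD1039, all from 1 start exon. Its level overlapped between groups, but its end did not stay in place. The end exon at 1829396 to 1830434 had 20.3, 36.1 and 23.6 FPKM under vehicle and 21.2 FPKM in ZLD1039 tumour 1, and was not listed in ZLD1039 tumours 2 and 3. In those tumours the end exon at 1815965 to 1816719 held 39.5 and 26.0 FPKM, where the other 4 tumours had 0.15 to 0.37 FPKM. ZLD1039 tumour 1 thus looked like the vehicle tumours, and neither end passed (limma adjusted p = 0.86 for each).

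XLOC_004184 (chromosome 1, 148002951 to 148361361, minus strand) covered 358 kb and overlapped between groups, at 11.9, 18.6 and 19.3 FPKM under vehicle and 21.7, 17.7 and 15.1 FPKM under ZLD1039. Its outermost end exon, 148002951 to 148004791, was listed in the vehicle tumours alone, at 5.26, 5.62 and 14.5 FPKM (limma adjusted p = 0.18). The locus held 32 events, and no share of all events with such a split is given here. The end exon crosses the start of ENSG00000223612 on the opposite strand, which had 2.28 and 1.13 FPKM in vehicle tumours 1 and 3 and was not listed in the other 4.

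XLOC_044862 (chromosome 2, 224466860 to 224588764, minus strand) had 24.2, 19.3 and 21.3 FPKM under vehicle and 20.6, 27.8 and 29.6 FPKM under ZLD1039. It overlaps loci with an identifier on both strands. XLOC_012248 (chromosome 11, 65077406 to 65099852, plus strand), which ends 1373 bp before ENSG00000133884, had 16.7, 17.6 and 16.9 FPKM under vehicle and 17.5, 9.69 and 13.8 FPKM under ZLD1039. In both loci the groups overlapped. The same held for XLOC_068398 on chromosome 6 (8.75 to 17.1 and 11.8 to 17.7 FPKM), for XLOC_058072 on chromosome 4 (9.97 to 15.9 and 9.13 to 17.0 FPKM), for XLOC_059006 on chromosome 4 (9.42 to 13.9 and 6.59 to 9.52 FPKM) and for XLOC_009065 on chromosome 10 (6.68 to 10.1 and 7.29 to 12.1 FPKM), vehicle given first.

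High values in some tumours and none in others marked XLOC_084585 and XLOC_081647. XLOC_084585, on the unplaced contig GL000220.1 (120478 to 148692), had 55.0, 49.3 and 9.88 FPKM under vehicle and 53.5 FPKM in ZLD1039 tumour 2, and was not listed in ZLD1039 tumours 1 and 3. It lies inside ENSG00000266658, a locus on the same strand listed in vehicle tumour 2 alone, at 224 FPKM. XLOC_081647 (chromosome 9, 69727356 to 69742457, minus strand) had 4.93 and 38.0 FPKM in vehicle tumours 1 and 3, 5.30 and 9.41 FPKM in ZLD1039 tumours 1 and 3, and was listed in neither tumour 2.

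**Figure D2:**
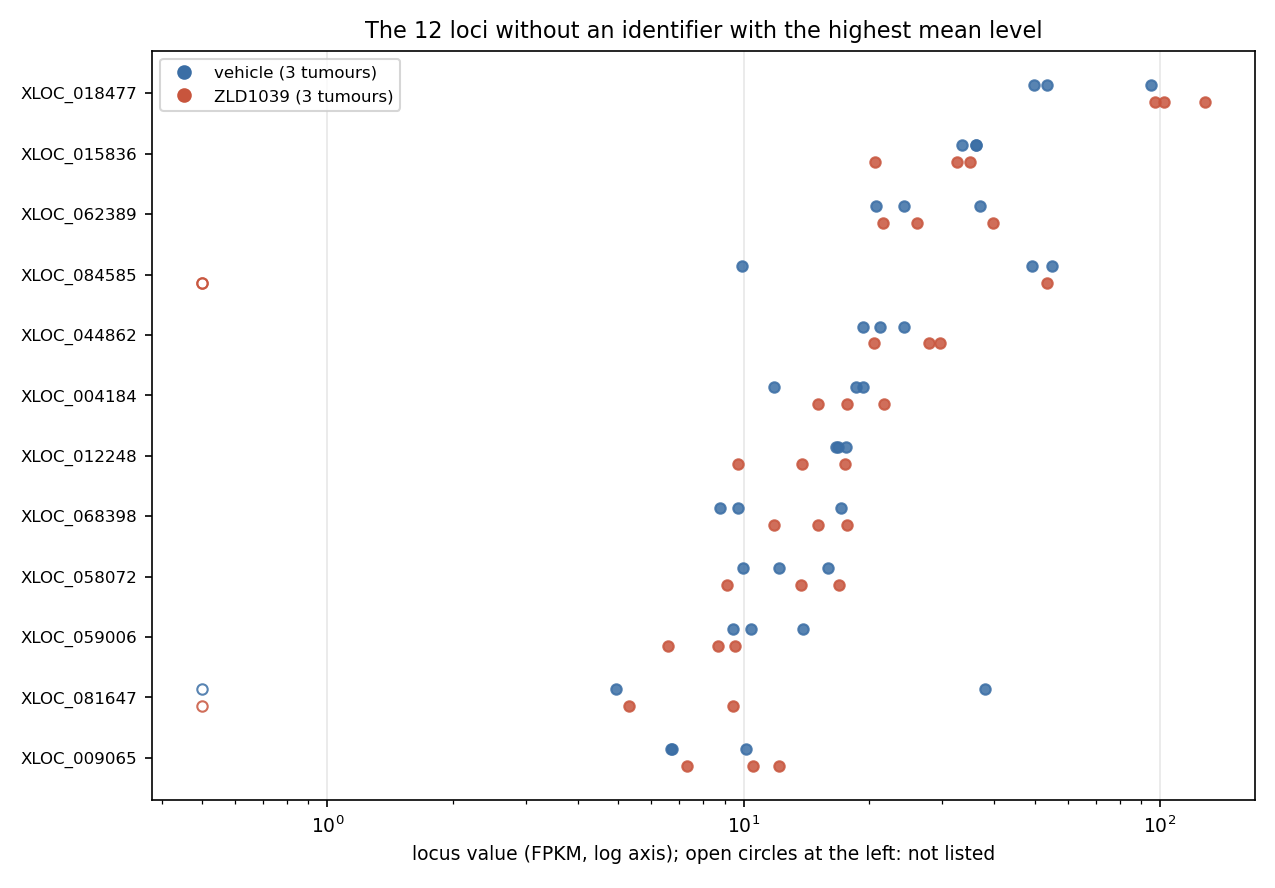
Locus value in FPKM (log axis) of the 12 loci without an identifier with the highest mean over 6 tumours, 1 point a tumour, vehicle and ZLD1039 in 2 colours; open circles at the left edge are tumours that did not list the locus. In XLOC_018477 the lowest ZLD1039 value, 97.3 FPKM, is above the highest vehicle value, 95.1 FPKM; the groups of the other 11 overlap.

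Few members could be tested between treatments. The level needed for a test, a group mean of 1 FPKM or more, was reached by 128 of the 739, among 10834 loci tested in all. Of the 128, 1 was called, XLOC_084825, against a background of 0.0185%, and the next member had an adjusted p of 0.88. With no filter, with summed start events, with a replicate block or with any 1 tumour left out, that count was 0. At an unadjusted p under 0.05 there were 10 of 128 (7.81%), against 4.94% of all loci tested. The median log2 change was 0.04 for the 128 and 0.02 for all loci tested, with 71 above 0 and 57 below. A locus that passed through 1 high group had to differ, so these counts describe the tested loci and not the 739.

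The changes of members were less precise than those of other loci. Their median standard error was 0.36 on the log2(FPKM + 1) scale, against 0.23 over all loci. The median half-width of the 95% interval was 0.84, against 0.53. Among tested loci listed in all 6 tumours the gap was smaller, with median standard errors of 0.27 in members and 0.22 over all loci. Changes beyond 1 log2 unit in size were seen in 11 of 128 members (8.59%) and 1.74% of all loci. In 56 of the 128 (43.8%), at least 1 tumour did not list the locus, against 5.20% of all loci tested, and their part in these sizes was not tested. Of the 72 tested members listed in every tumour, 1 (XLOC_036285) differed by more than 1 log2 unit and none was called by limma, with 5 at an unadjusted p under 0.05.

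**Figure D3:**
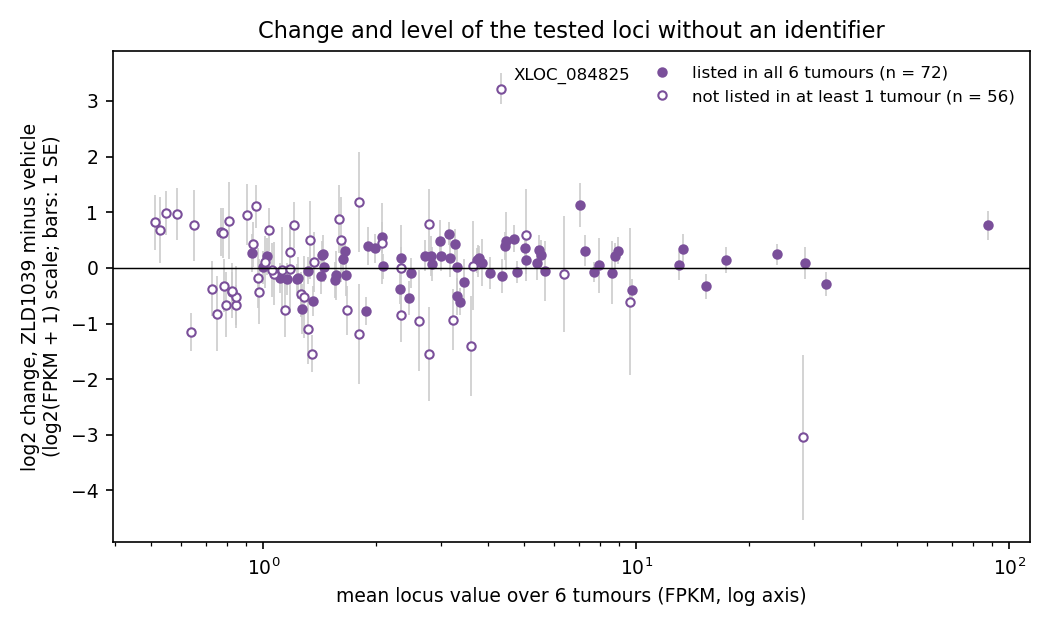
Log2 change of ZLD1039 minus vehicle (y axis, log2(FPKM + 1) scale, bars 1 SE) against the mean locus value over 6 tumours in FPKM (log axis), for the 128 tested loci without an identifier. Filled points are the 72 listed in all 6 tumours and open points the 56 not listed in at least 1; the wide scatter lies mainly among the open points, and XLOC_084825 is the 1 called locus.

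Groups did not overlap in 12 of the 128 members (9.38%), 7 higher and 5 lower under ZLD1039, against backgrounds of 10.9% in either direction, 5.75% higher and 5.2% lower. The share among members was therefore near the background. Beside the loci above, the higher ones were XLOC_036285, XLOC_051405, XLOC_084634 and XLOC_084665, the last named here only to complete the count. The other lower ones were XLOC_049705, XLOC_033164, XLOC_050067 and XLOC_020099. Apart from XLOC_084825, each had a limma adjusted p of 0.88.

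XLOC_036285 (chromosome 18, 70991853 to 71059591, plus strand) had 5.53, 1.77 and 5.13 FPKM under vehicle and 5.88, 11.8 and 12.2 FPKM under ZLD1039 (log2 change 1.13, SE 0.39). ZLD1039 tumour 1 was just above the highest vehicle tumour. The nearest locus with an identifier, ENSG00000263711 at 60.2 kb, had 2.57 to 3.57 and 2.53 to 4.69 FPKM in the same groups. XLOC_084634, on contig GL000222.1 (5332 to 36719), had 2.52, 2.30 and 1.96 FPKM under vehicle and 3.65, 3.39 and 5.01 FPKM under ZLD1039 (log2 change 0.61, SE 0.21). No locus with an identifier was listed on that contig. XLOC_051405 (chromosome 22, 34879211 to 35164841, plus strand) had 0.733 FPKM in vehicle tumour 1 and 1.31, 2.65 and 1.05 FPKM under ZLD1039.

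The lower members included a pair of overlapping loci on chromosome 21. XLOC_049705 (14534496 to 14560425, plus strand) had 3.13, 1.70 and 2.62 FPKM under vehicle, 0.637 FPKM in ZLD1039 tumour 1 and no listing in ZLD1039 tumours 2 and 3 (log2 change -1.54, SE 0.33). Its vehicle values came from start exons and its 1 ZLD1039 value from an end exon, so different stretches of the locus were compared. XLOC_050067 (14559193 to 14668777, minus strand) had 3.62, 4.27 and 4.82 FPKM under vehicle and 2.97, 1.56 and 2.94 FPKM under ZLD1039 (log2 change -0.61, SE 0.24).

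These chromosome 21 loci overlap by 1233 bp, and no locus with an identifier lay within the run of 4 members they belong to (14534496 to 14686868). The nearest one, ENSG00000185390, starts 41.1 kb past XLOC_050067 and was also low in every ZLD1039 tumour, at 0.85, 0.81 and 2.05 FPKM under vehicle and 0.11, 0.08 and 0.07 FPKM under ZLD1039. It did not pass either (limma adjusted p = 0.88).

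XLOC_033164 (chromosome 17, 66818604 to 66872648, plus strand) had 2.61, 3.02 and 2.25 FPKM under vehicle and 1.35, 0.675 and 1.38 FPKM under ZLD1039. XLOC_020099 (chromosome 13, 29149079 to 29158823, plus strand) had 2.17, 1.49 and 1.82 FPKM under vehicle and 1.23, 0.549 and 0.880 FPKM under ZLD1039. Both were lower in every ZLD1039 tumour. The neighbour of XLOC_020099 at 74.4 kb, ENSG00000132963, was high and overlapped between groups, at 73.9 to 81.1 and 79.8 to 133 FPKM.

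**Figure D4:**
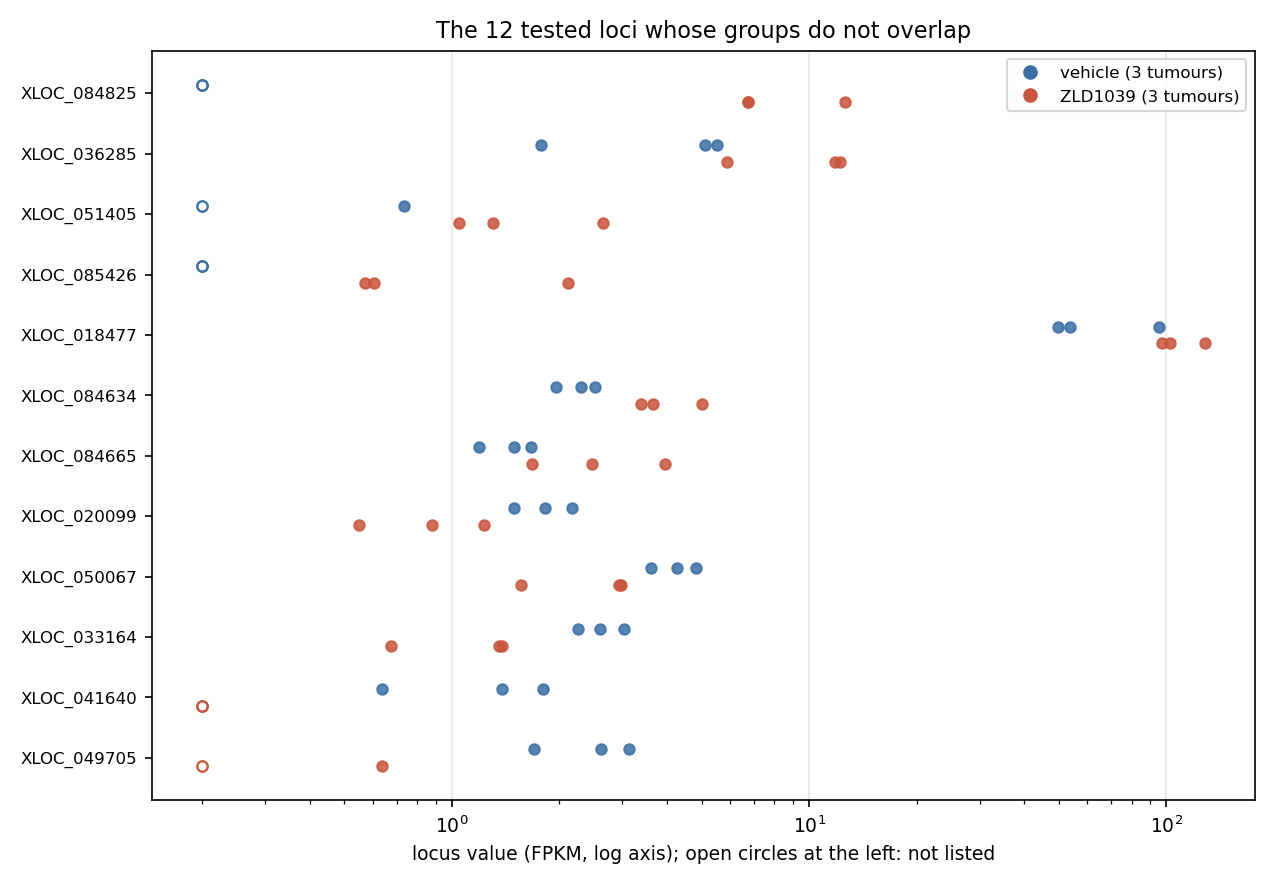
Locus value in FPKM (log axis) of the 12 tested loci without an identifier whose groups do not overlap, 1 point a tumour; open circles at the left edge are tumours that did not list the locus. The upper 7 are higher and the lower 5 lower under ZLD1039; 1 of the 12, XLOC_084825, passed the limma test.

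At the level of events, 540 events of 120 members were tested among 85258 in all. None was called by limma, against a background of 0.0364%, and 30 (5.56%) had an unadjusted p under 0.05, against 4.72% of all events. The smallest adjusted p was 0.066, for the start and the end of XLOC_084825.

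Inclusion of skippable exons could be measured for 34 exons of 23 members, as the FPKM with the exon over the FPKM with and without it. Mean inclusion was 41.0%, 38.2% and 38.2% in the vehicle tumours and 42.0%, 50.5% and 50.8% in the ZLD1039 tumours. The ZLD1039 values were all higher, by 8.64 percentage points on average, with an exact permutation p of 0.1 (n = 3 each), the smallest possible. Of the 34 exons, 21 were higher and 13 lower. Groups did not overlap in 3, in XLOC_015836, XLOC_032451 and XLOC_084746 (8.82%, against a background of 6.61% of all 11888 exons measured). The exon of XLOC_015836 was hardly included in any tumour, at 0.22%, 0% and 0.23% under vehicle and 0.39%, 0.27% and 0.76% under ZLD1039. The mean difference was 2.98 points without the 4 exons with the largest differences and 4.24 points for the 22 exons whose mean total reached 2 FPKM (exact permutation p = 0.4 for each), so its size rests on a few exons and on the filter. In 11854 exons of loci with an identifier, the same difference was 0.123 points.

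XLOC_032451 and XLOC_084746 were named after their values were seen. Inclusion of the XLOC_032451 exon was 47.0%, 49.1% and 0% under vehicle and 63.9%, 100% and 100% under ZLD1039. Its mean total was low, at 1.41 FPKM. The exon of XLOC_084746, on contig GL000241.1, was 100 bp long, at 35760 to 35859. Its inclusion was 68.6%, 72.7% and 66.0% in the vehicle tumours and 88.3%, 100% and 100% in the ZLD1039 tumours. The groups did not overlap, at a mean total of 4.23 FPKM with and without the exon. A longer exon with the same end, at 35706 to 35859, was counted apart. Its inclusion was 72.9%, 63.8% and 56.3% under vehicle and 71.8%, 100% and 100% under ZLD1039, and there the groups overlapped.

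Members were built simply. Their 2657 distinct events were mostly start sites (943, 35.5%, against 21.8% in loci with an identifier) and end sites (878, 33.0%, against 10.0%). Exon skipping made up 17.8% (against 40.2%), introns retained or spliced 6.93% (against 15.0%) and alternative exon ends 6.74% (against 13.0%). In 640 members (86.6%) there were start and end events alone, against 25.2% of the loci with an identifier, and 544 held exactly 1 start and 1 end.

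Structure went with recurrence. An alternative exon event was listed for 2.00% of members in 1 tumour and 59.0% of members in 6, against 21.1% and 87.4% of loci with an identifier. More than 1 end site was listed for 76 members, and in those found in every tumour for 41.0%, against 24.6% of loci with an identifier. More than 1 start site was less frequent there than in loci with an identifier, at 51.3% against 73.4%. The most events were held by XLOC_072235 (chromosome 7, 56433964 to 56446230, plus strand), with 67 events in 12267 bp. It had 8.83, 5.35 and 7.17 FPKM under vehicle and 15.5, 2.68 and 8.23 FPKM under ZLD1039, with the ZLD1039 tumours on both sides of the vehicle range. XLOC_072235 overlaps ENSG00000237268 (56438159 to 56516068) on the opposite strand. That locus had 19.0, 19.4 and 22.2 FPKM under vehicle and 13.8, 21.8 and 8.56 FPKM under ZLD1039. Reads in the overlap cannot be told apart, since it is not known whether the libraries kept strand.

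The median member spanned 7452 bp (quartiles 3157 and 26110 bp, range 75 to 582313 bp), against 23426 bp for loci with an identifier. At each number of tumours from 1 to 6 the order was the other way. Loci listed in 1 tumour had median spans of 4892 bp in members and 2884.5 bp in loci with an identifier. Among loci listed in all 6 tumours, members had a median span of 35867 bp, against 29874 bp for loci with an identifier. Their last exons were longer, with a median of 1899 bp against 643 bp. The longest member was XLOC_041594 (chromosome 2, 76099027 to 76681339, plus strand), with 5.22, 6.21 and 2.66 FPKM under vehicle and 4.10, 5.12 and 2.89 FPKM under ZLD1039. The next longest were XLOC_009960 on chromosome 10 (508756 bp, listed in 1 tumour) and XLOC_027120 and XLOC_027299 on chromosome 15 (466834 and 461037 bp).

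Of the members, 576 lay on the plus strand and 163 on the minus strand (77.9% plus), against 55.5% plus of loci with an identifier. Plus was the more frequent strand on all 23 chromosomes that held members. Per tumour, 78.6%, 77.3% and 78.3% of listed members were on the plus strand under vehicle and 77.2%, 74.9% and 71.4% under ZLD1039. The ZLD1039 values were all lower (exact permutation p = 0.1, the smallest possible, adjusted 0.5, n = 3 each). In loci with an identifier the share was 54.0% to 54.5% in every tumour.

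Members were unevenly spread over the chromosomes. They made up 43 of 289 loci on chromosome 13 (14.9%), 26 of 191 on chromosome 21 (13.6%), 62 of 677 on chromosome 9 (9.16%), 33 of 416 on chromosome 20 (7.93%) and 45 of 584 on chromosome 4 (7.71%). Among the chromosomes that held members, the lowest shares were 17 of 980 on chromosome 19 (1.73%) and 21 of 899 on chromosome 17 (2.34%). On chromosome 13, 18 of the 43 were listed in more than 1 tumour and 5 in all 6, and on chromosome 20 the counts were 11 and 2 of 33. The unplaced contigs held 24 members, on 11 of 18 contigs, which was 61.5% of the loci there, and 8 contigs held members alone.

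**Figure D5:**
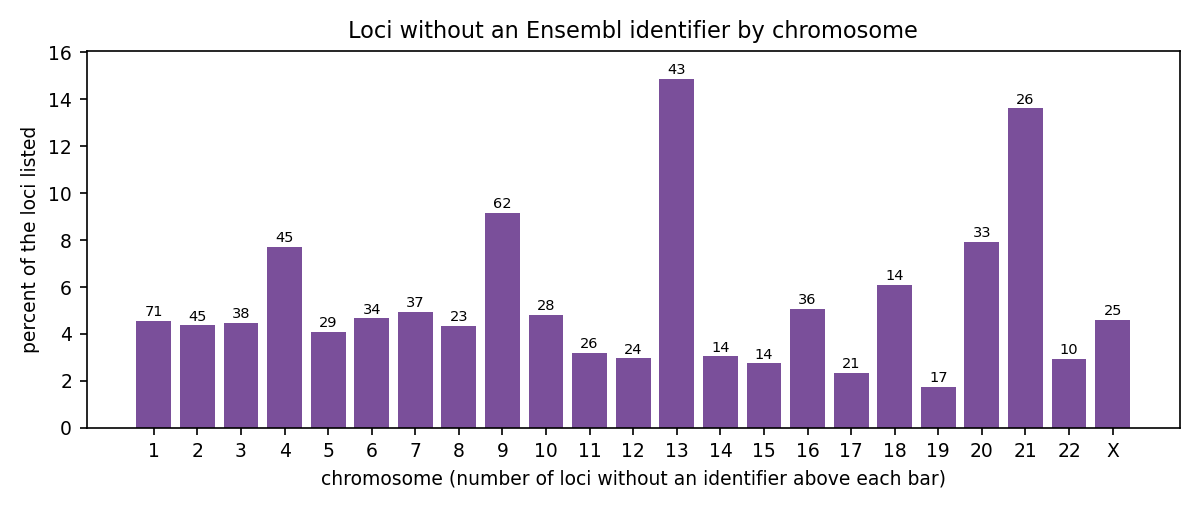
Loci without an Ensembl identifier as a percent of all loci listed on each chromosome (y axis), over the 6 tumours pooled, with their number above each bar. Chromosomes 13 and 21 stand highest, at 14.9% and 13.6%, and chromosome 19 lowest of those drawn, at 1.73%.

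Most members stood alone. With gaps of up to 50 kb joined, 566 (76.6%) had no other member beside them, and 173 formed 76 runs of at least 2. The largest run held 7 members on contig GL000214.1 (30371 to 135053), of which 1 was listed in all 6 tumours, and 2 in a single tumour. Runs of 4 lay on chromosome 1 (24024915 to 24066014), chromosome 9 (42728395 to 42908512), chromosome 21 and contig GL000224.1. In the run on chromosome 1 all 4 members were on the plus strand and 3 were listed in 1 tumour each.

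Distance to the nearest locus with an identifier could be measured for 720 members. The median was 23357 bp, against 5952 bp between loci with an identifier, and the quartiles were 1762 and 143493 bp. In 52 members (7.22%, against 22.5%) the spans overlapped, 15 on the same strand and 37 on the opposite one. A further 182 lay within 5 kb without overlap, so that 32.5% were near or overlapping (against 48.0%). At the far end, 217 (30.1%, against 10.8%) were more than 100 kb away and 23 (3.19%, against 0.359%) more than 1 Mb.

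The most distant members were low or in few tumours. XLOC_067880 on chromosome 6 (66968953 to 66986932) was 2435649 bp away and was listed in ZLD1039 tumour 2 alone, at 1.86 FPKM. XLOC_012647 on chromosome 11 (98201619 to 98433976) was listed in vehicle tumour 1 alone, at 0.46 FPKM. On chromosome 16, XLOC_029701 (61162800 to 61399488) had 0.85 and 1.30 FPKM in vehicle tumours 2 and 3 and 1.66 and 0.70 FPKM in ZLD1039 tumours 2 and 3. Its neighbour XLOC_029702 (61481629 to 61501464) was listed in ZLD1039 tumour 3 alone, at 0.62 FPKM.

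Of the 4 possible arrangements of the 182 members within 5 kb and their neighbours, head to head was the most frequent, with starts close by and opposite directions. This held for 78 (42.9%), with a median gap of 270.5 bp, and 47 of them were listed in 1 tumour. Loci with an identifier within 5 kb of each other had a similar share, 45.9%. On the same strand, 41 members (22.5%, against 13.3%) lay downstream of the neighbour, at a median gap of 1416 bp, and 38 (20.9%, against 13.0%) upstream of it, at 2017.5 bp. Tail to tail pairs numbered 25 (13.7%, against 27.8%).

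Members within 5 kb had means over the 6 tumours far below those of their neighbours. Unlisted tumours count as 0 in these means. Most of these members were listed in 1 tumour: 47 of 78 head to head, 31 of 41 downstream and 26 of 38 upstream. Head to head members had a median of their mean values of 0.149 FPKM and their neighbours 7.53 FPKM. Downstream members had 0.108 FPKM against 4.64 FPKM, and upstream members 0.156 FPKM against 9.56 FPKM. Where both a member and its neighbour could be tested, their log2 changes had the same sign in 18 of 31 pairs within 5 kb or overlapping and in 27 of 45 pairs farther apart. These shares are a description over loci of the same libraries and carry no test.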

How the data were processed

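The authors deposited 1 list of transcript events per tumour, with FPKM values, per the file headers. Of tools, the submitters' processing notes list HTSeq 0.6.1 and bcl2fastq 2.17.1.14, and of builds mm10, which the positions contradict. No source used here gives the aligner, assembler or event caller. The labels' protocols name a bead kit for mRNA. Groups came from the sample titles. The labels do not state that each tumour came from its own mouse, so each p-value reflects the variation among these tumours, which may be technical.

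Every locus, and separately every event, whose mean reached 1 FPKM in either group entered a limma fit (limma 3.58.1, R 4.3.3) of log2(FPKM + 1). The fit used a trend of variance on level, and p-values were adjusted by Benjamini-Hochberg with a threshold of 0.05. Fold changes on that scale understate changes of low values. Events were matched by locus, type, start and end. The fit was tested on data simulated from the means and spread of the 10834 tested loci, with 200 loci changed. It found 30% of them at a 2-fold change of FPKM + 1 and 81% at 4-fold, with 5 and 9 false calls. Members were not simulated apart. Per-tumour quantities had exact two-sided permutation tests. Exon inclusion, a quantity chosen after the data were seen, was computed where the mean total reached 1 FPKM and no tumour was at 0.

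Named loci were those called in either fit, the 12 highest by mean, up to 6 a direction with a complete split, the 6 largest changes a direction among groups without overlap, and the 4 longest, the 4 with the most events and the 4 farthest from a locus with an identifier. The members and lists were chosen with earlier results of these data known. Marker genes were not used, for want of human symbols.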

Additional observations from a re-analysis of the deposited data

How the results depend on the processing

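The call of 1 member, XLOC_084825, became 0 with no filter on low values (adjusted p = 0.0993), with summed start events as the locus value (0.0943) and with a replicate block (0.187), and was 0 to 0 when each tumour was left out in turn. Its adjusted p ran from 0.031 to 0.277 over all the limma fits of loci. Same-numbered tumours had correlations of their deviations of -0.03, 0.02 and -0.06. With 3 tumours a group these cannot decide whether the replicate numbers mark a shared batch, and the labels give none. The block left 0 members called among loci and 0 among events. Events of members went from 0 to 2 called without a mean-variance trend, both of XLOC_084825, and from 0 to 2 when tumours were left out, with 2 of XLOC_018477 without vehicle tumour 2 and 2 of XLOC_062389 without ZLD1039 tumour 1. The difference in FPKM share, 0.00645 points, was -0.00705 without the 3 highest members and ran from -0.00947 to 0.0174 when tumours were left out. The 32.5% of members within 5 kb became 15.1% for loci on the same strand, 21.7% within 1 kb and 39.3% within 10 kb. Mean inclusion was chosen after seeing the data, as were its alternatives and the median-of-ratios scaling, and kept its sign in each: the 8.64 points were 4.24 at a total of at least 2 FPKM, 9.63 at 0.5 FPKM, 2.98 without the 4 largest differences and 7.13 to 11.5 with a tumour left out.

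Of 395 values over the alternatives for 25 named members, 372 kept direction and side of the threshold, 9 lost the call, all of XLOC_084825, and 14 reversed a log2 change that was not called. With the largest event as the locus value, XLOC_004184 was at -0.41 and XLOC_058072 at -0.014. With a tumour left out, the log2 change ran from -0.15 to 0.32 in XLOC_062389, from -0.075 to 0.26 in XLOC_004184, from -0.14 to 0.27 in XLOC_058072, from -1.91 to 0.73 in XLOC_081647, from -0.43 to 0.054 in XLOC_041594 and from -0.46 to 0.63 in XLOC_072235. The cause was not tested. Since the depth is unknown, the counting error of the low values that make up most of the members could not be estimated.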
